A study of Mus musculus with 4 samples.

Results

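The cholesterol genes described here are Hmgcs1, Idi1, Sqle, Srebf2, Insig1 and Insig2. They are 6 of 21924 protein-coding genes and were chosen by name, together with every peak that the deposited lists assign to them and every peak that reaches within 50 kb of their transcription start sites. This rule found 33 peaks, which merged into 18 regions of 10755 in the series, where peaks of any library that shared at least 1 bp were merged. Of these, 17 regions lay within 50 kb of a start site, and the remaining one lay farther from Insig2.

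The data are ChIP-Seq peak lists for the Glucocorticoid Receptor (GR) and for E2A from whole livers of male C57BL/6 mice. Every liver was E47+/+ and untreated according to its labels, from animals on chow, collected at ZT10, that is 10 h after lights on. By the methods the mice were 10 to 16 weeks old. The paper's results state that both antibodies were used on the same livers, and there were 2 replicates per antibody. The E2A antibody sc-349 recognises products of Tcf3, the gene of the E-box binding proteins E47 and E12. Whole liver contains immune and endothelial cells besides hepatocytes, so a peak cannot be assigned to a cell type.

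Some of the records contradict each other. The sample descriptions of both E2A libraries name a GR ChIP, and the second also names E47-/- mice, whereas title, antibody and genotype fields give E2A in E47+/+ livers. The 2 GR lists carry replicate numbers in their names that are the reverse of the labels, and the labels were followed. The livers are untreated in the labels but called Dex-treated elsewhere in the study's materials. The lists differed in length, from 1892 peaks in E2A replicate 2 to 7334 in GR replicate 2, with 4291 in GR replicate 1 and 4028 in E2A replicate 1. In GR replicate 2, 57.4% of peaks were annotated to promoters, against 34.3% to 41.2% in the other 3 libraries. Of 5 hepatocyte genes, 4 or 5 had a peak within 50 kb in each library, against 1 to 3 of 5 lymphocyte genes and 0 of 2 muscle and neuron genes. The hepatocyte genes include Pck1 and Tat, which the paper names as known GR targets, so this contrast was no test of cell type. Among all genes the shares were 23.5% and 41.8% in GR replicates 1 and 2 and 26.4% and 13.7% in E2A replicates 1 and 2. The lymphocyte counts were thus not low beside all genes. Cd3e was the lymphocyte gene with such a peak in all 4 libraries.

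Cells make cholesterol from acetyl-CoA through mevalonate and squalene. When sterols in the endoplasmic reticulum run low, the membrane-bound factor SREBP2, encoded by Srebf2, travels with its escort SCAP to the Golgi, is cleaved by the proteases of Mbtps1 and Mbtps2, and turns on genes for synthesis and uptake. When sterols are plentiful, the INSIG proteins hold SCAP and SREBP2 in place. Hmgcs1, Idi1 and Sqle encode enzymes of synthesis, and none of the 6 genes encodes a receptor for uptake. In the liver, glucocorticoids act through GR on many metabolic genes.

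All 6 genes had a GR promoter peak in replicate 2, where 17.4% of all protein-coding genes had one. Only Srebf2 and Insig1 had one in GR replicate 1 as well, 2 of 6 genes against 6.0% of all genes in that library. E2A replicate 1 had promoter peaks at 5 of 6 genes, all but Idi1, with 7.01% of all genes called. E2A replicate 2 had them at Hmgcs1 and Insig1, with 2.92% of all genes called. Insig1 was the only one of the 6 with a promoter peak in all 4 libraries. A promoter peak is one that the deposited annotation places from -1000 to 500 bp of a start site.

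**Figure D1:**
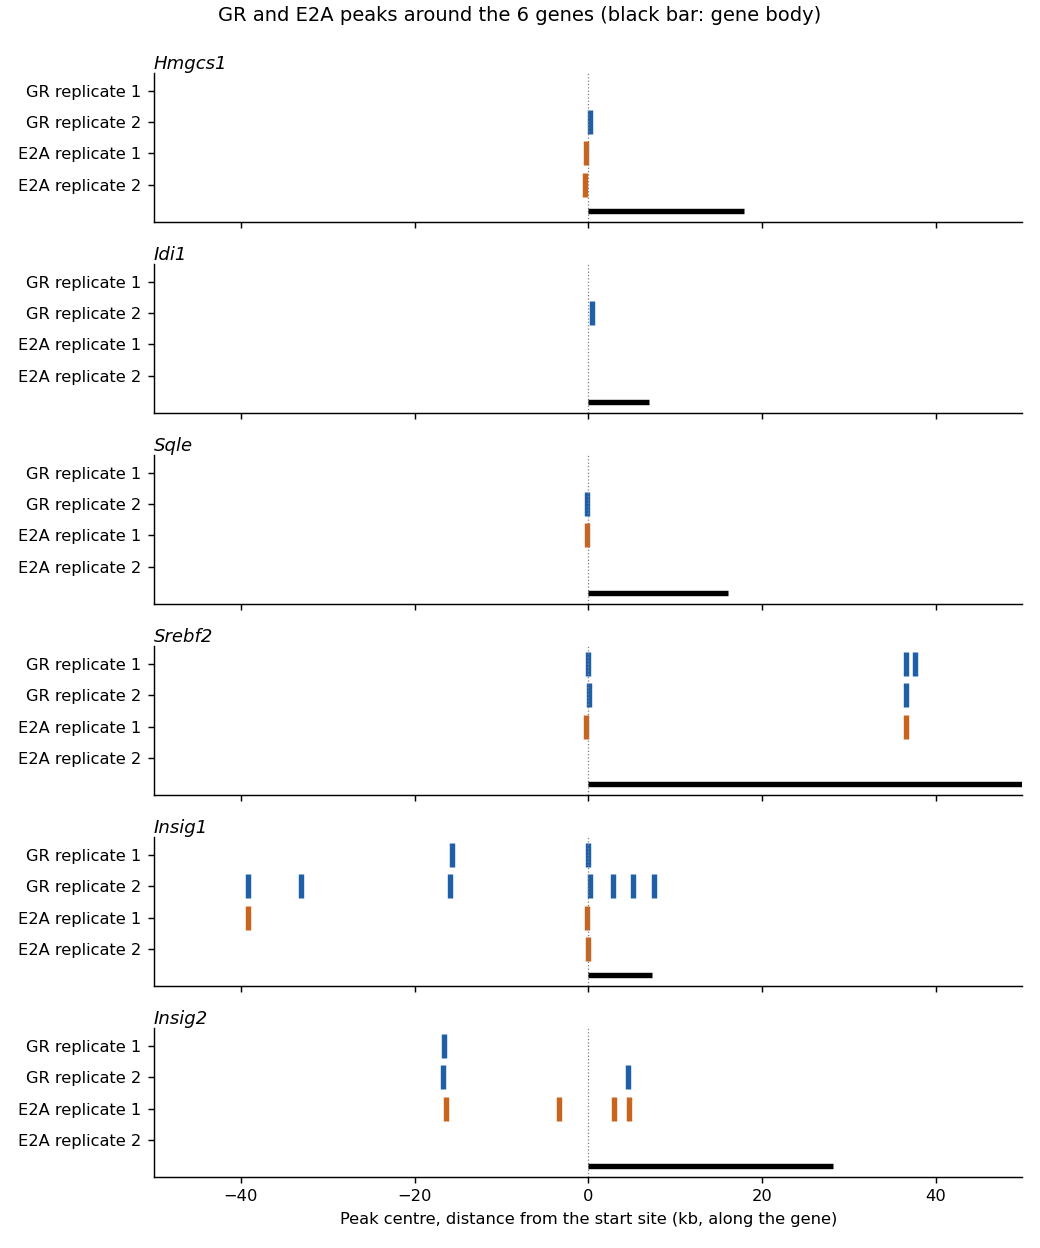
Centres of called peaks (vertical marks, GR in blue, E2A in orange) by library within 50 kb of the start site of each gene, in kb along the gene, with the gene body as a black bar. Hmgcs1, Idi1 and Sqle have peaks at the promoter alone, whereas Srebf2, Insig1 and Insig2 also have distal ones, and Insig1 has the most with 12.

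Requiring both GR replicates left 2 of 6 genes with a promoter peak, where 5.16% of all genes passed. Both E2A replicates likewise left 2 of 6, where 2.07% of all genes passed. Among all genes with a promoter peak in GR replicate 2, 29.6% also had one in GR replicate 1 and 30.6% had one in E2A of either replicate. For the 6 genes the same counts were 2 and 5. The genes were picked with results of these lists known, so the distance from these background shares has no test.

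Within 50 kb of the start sites, GR replicate 1 held 6 peaks, GR replicate 2 held 14, E2A replicate 1 held 10 and E2A replicate 2 held 2. The libraries of the same antibody were farther apart than the antibodies. The mean was 10 ± 5.66 peaks for GR and 6 ± 5.66 for E2A (SD, n = 2 each), a difference of 4 (exact permutation test over the 4 libraries, two-sided, p = 0.667, smallest possible p = 0.333). Per 1000 peaks of the list the values were 1.4 and 1.91 for GR and 2.48 and 1.06 for E2A, so that E2A replicate 1 was highest on this scale and E2A replicate 2 lowest. Genes with at least 1 such peak numbered 3, 6, 5 and 2 of 6 in the same order of libraries. Among all genes the shares were 23.5%, 41.8%, 26.4% and 13.7%.

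**Figure D2:**
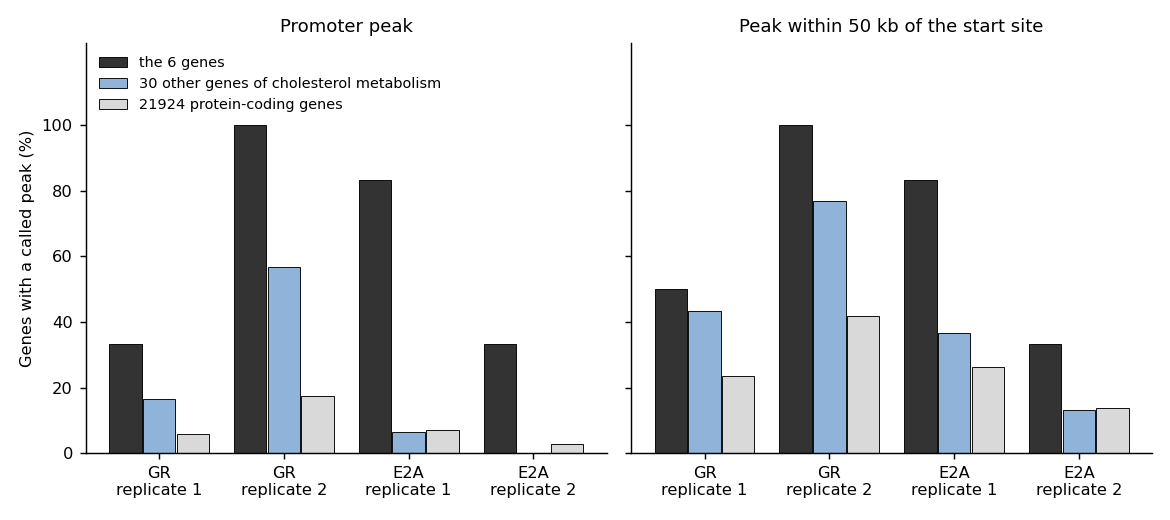
Percentage of genes with a called promoter peak (left) or any peak within 50 kb (right) in each library, for the 6 genes, 30 other genes of cholesterol metabolism and 21924 protein-coding genes. In E2A replicate 1 the 6 genes stand at 5 of 6 and the 30 others at 2 of 30 for promoter peaks, while in GR replicate 2 they stand at 6 of 6 and 17 of 30.

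Hmgcs1 encodes the cytosolic HMG-CoA synthase, which makes the substrate of the rate-limiting step of the pathway. Its gene starts at chr13:119690379 on the plus strand of mm10, and all 3 of its peaks were promoter peaks. The E2A replicate 2 peak ran from 119689888 to 119690167, the E2A replicate 1 peak from 119690025 to 119690308 and the GR replicate 2 peak from 119690256 to 119690929. E2A was therefore called upstream of the start site and GR across it. The E2A peaks shared 143 bp with each other, E2A replicate 1 shared 53 bp with GR, and 88 bp lay between E2A replicate 2 and GR. The E2A peaks were narrow, with 7.71% of the promoter peaks in the list of replicate 1 and 15.7% in that of replicate 2 being narrower, whereas the GR peak was wider than 80.2% of the promoter peaks in its list. GR replicate 1 had no peak within 50 kb of Hmgcs1.

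The RefSeq promoter of Hmgcs1 (GRCm38.p6, chr13:119690101-119690400, plus strand, 250 bases before to 50 after its RefSeq start) is shown because a sterol regulatory element (SRE), the DNA site of SREBP, falls between the GR and E2A replicate 2 peaks. Capitals mark the SRE letters TCACNCCAC, the NF-Y letters CCAAT and the E-box letters CANNTG on either strand, and the E-box here overlaps an NF-Y match.
Hmgcs1 promoter: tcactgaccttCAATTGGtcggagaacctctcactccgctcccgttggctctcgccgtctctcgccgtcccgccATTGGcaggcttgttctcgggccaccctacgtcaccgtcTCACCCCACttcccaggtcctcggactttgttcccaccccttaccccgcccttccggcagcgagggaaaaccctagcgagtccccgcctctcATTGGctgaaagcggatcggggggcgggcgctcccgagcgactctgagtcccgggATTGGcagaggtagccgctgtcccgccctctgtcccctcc

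The SRE match lay at 119690214-119690222, with its centre 161 bp before the start site. It was covered by the E2A replicate 1 peak, whereas E2A replicate 2 ended before it and GR began after it. Of 32851 RefSeq promoters of the same length, 1.24% held these letters without a mismatch. Of the 5 genes found among these promoters, Hmgcs1 alone had such a match. NF-Y letters, the CCAAT box that often stands beside an SRE, matched 5 times in the called region. The 3 upstream matches lay in E2A peaks and the 2 nearest the start site in the GR peak. All 3 E-box matches of this region lay in E2A peaks, and the GR peak held none of them. No GRE match was found in the called region or the promoter, counted as AGAACA, any 3 bases and TGTTCT with up to 2 mismatches. Of the 300 bp promoters, 1.84% held this form. The half-site AGAACA matched at 2 places in the called region, at 119690186-119690191 in the E2A replicate 1 peak and at 119690771-119690776 in the GR peak.

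**Figure D3:**
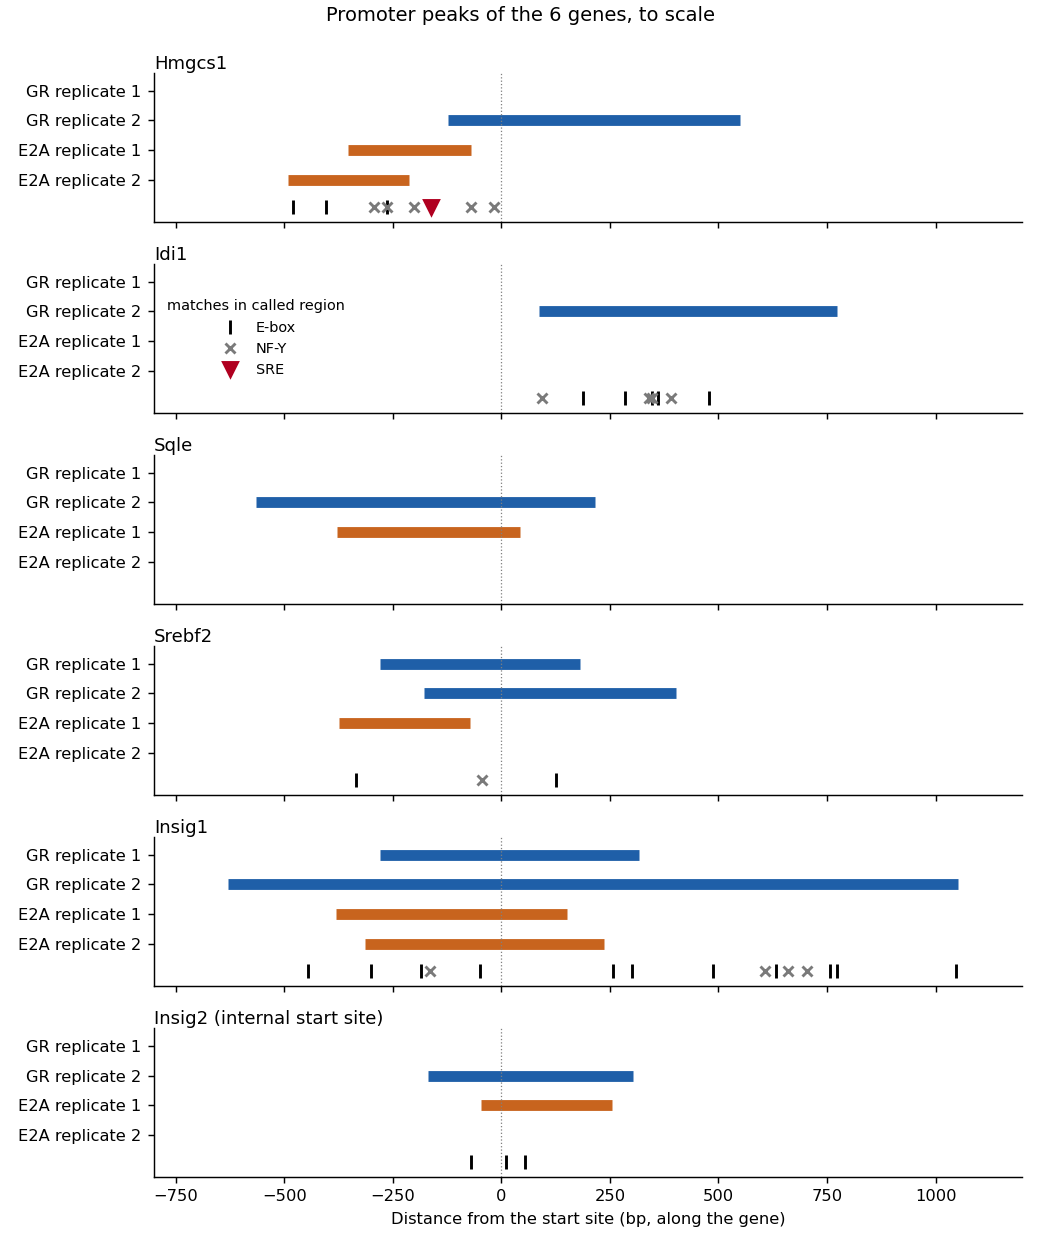
Extent of each promoter peak (bars, GR in blue, E2A in orange) by library, in bp along the gene from the start site (for Insig2 the internal RefSeq start at the called promoter), with letter matches inside the called region below (line, E-box CANNTG; cross, NF-Y; triangle, SRE; Sqle was not scanned). At Hmgcs1 and Srebf2 the E2A bars end before the start site and the GR bars cross it, while at Sqle, Insig1 and the internal Insig2 start bars of both lie across it. Idi1 has a single GR bar that begins after its GENCODE start, the one drawn, while its RefSeq start lies inside the bar.

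Idi1 encodes the isomerase that interconverts the isoprene units from which squalene is built. It had the fewest peaks of the 6 genes, a single GR replicate 2 peak at chr13:8885587-8886274, 688 bp wide. The peak began 86 bp after the GENCODE start site but ran across the RefSeq start at 8885606. No E2A peak lay within 50 kb of Idi1 in either replicate. The peak held 5 E-box and 4 NF-Y matches and no GRE or half-site AGAACA. Idi1 was one of 2063 genes whose promoter was called in GR replicate 2 alone. Of the other genes of the pathway, 11 had that pattern, among them Acat2, Ebp, Fdps, Hsd17b7 and Lss.

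Sqle encodes squalene epoxidase, which adds the oxygen that precedes ring closure to sterols. Its GR replicate 2 peak covered chr15:59314512-59315292 and its E2A replicate 1 peak covered chr15:59314699-59315119, wholly inside the GR peak. Their centres were 7 bp apart. GR replicate 1 and E2A replicate 2 had no peak within 50 kb. Sqle thus had the same promoter calls as Insig2, a pattern of 424 genes that also included Mbtps1 and Pmvk, a mevalonate pathway kinase.

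Srebf2 itself had peaks at its promoter and far inside the gene. The promoter was called in 3 libraries, from chr15:82146807 to 82147108 in E2A replicate 1, from 82146901 to 82147361 in GR replicate 1 and from 82147002 to 82147582 in GR replicate 2. The E2A peak ended 73 bp before the start site at 82147181, and both GR peaks ran across it. E2A shared 208 bp with GR replicate 1 and 107 bp with GR replicate 2. The same 3 calls were found at 294 genes.

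The Srebf2 promoter (GRCm38.p6, chr15:82147019-82147318, plus strand) is shown because its matches divide between the peaks, with NF-Y and E-box letters in capitals.
Srebf2 promoter: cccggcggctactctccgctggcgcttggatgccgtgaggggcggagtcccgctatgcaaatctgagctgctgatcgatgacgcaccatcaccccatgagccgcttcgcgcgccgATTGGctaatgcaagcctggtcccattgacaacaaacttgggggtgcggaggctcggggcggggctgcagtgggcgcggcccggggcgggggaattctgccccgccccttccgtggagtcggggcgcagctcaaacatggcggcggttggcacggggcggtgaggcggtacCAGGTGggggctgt

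The E-box in this window, CAGGTG at 82147305-82147310, lay in both GR peaks and outside the E2A peak. A further E-box at 82146844-82146849, upstream of the sequence shown, lay in the E2A peak alone. The NF-Y match at 82147134-82147138 lay in both GR peaks and past the end of the E2A peak. No SRE match was found in this window, where no mismatch to TCACNCCAC was allowed. The stretch tcaccccat in the sequence shown differs from these letters in its last base alone and was not counted.

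The second Srebf2 region lay in intron 11, 36.6 kb from the start site. It was called in both GR replicates, at 82183491-82184104 and 82183521-82183951, and in E2A replicate 1 at 82183595-82183912. The E2A peak lay wholly inside each GR peak, and centres were 18 to 62 bp apart among the 3 libraries. The deposited lists assign these peaks to Mir33, the microRNA gene within Srebf2, at 14.0 to 14.2 kb before its start, and not to Srebf2. One more region, called in GR replicate 1 alone, lay 37.6 kb from the Srebf2 start at 82184425-82185119. It was the one region near the 6 genes with a peak in GR replicate 1 and none in replicate 2.

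The central 300 bp of the stretch called in all 3 libraries (GRCm38.p6, chr15:82183604-82183903, plus strand) are shown for the GRE match they hold, with E-box and GRE matches in capitals.
Srebf2 intron 11: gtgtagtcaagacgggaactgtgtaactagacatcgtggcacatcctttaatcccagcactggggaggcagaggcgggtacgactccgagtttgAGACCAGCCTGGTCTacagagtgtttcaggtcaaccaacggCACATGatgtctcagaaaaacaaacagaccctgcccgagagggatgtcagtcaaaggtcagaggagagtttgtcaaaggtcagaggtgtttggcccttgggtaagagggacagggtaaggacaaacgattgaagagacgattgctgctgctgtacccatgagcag

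The GRE match at 82183698-82183712 had 2 mismatches, and all 15 of its bases are marked as repeat in the reference. Repeats made up 17.3% of the full 614 bp of this region. The mean was 14.0% in 200 bp windows at the centre of 5585 distal regions of the series. These shares are over unlike lengths and are not directly comparable. Matches with up to 2 mismatches occurred in 6.07% of those windows. The E-box at 82183739-82183744 lay in all 3 peaks.

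Insig1 encodes the INSIG protein whose own gene is a target of SREBP. Its locus held 12 peaks in 7 regions, and 2.46% of all genes had as many peaks within 50 kb, where the median gene had 0. GR replicate 2 supplied 7 of the 12, GR replicate 1 and E2A replicate 1 2 each and E2A replicate 2 a single one. The promoter was the only region of the 18 called in all 4 libraries, a class that held 4.44% of all regions and 188 genes by promoter calls.

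At the Insig1 promoter the E2A peaks ran from chr5:28070983 to 28071515 and from 28071050 to 28071599 in replicates 1 and 2. The GR peaks ran from 28071083 to 28071679 and from 28070734 to 28072415. Peaks of 3 libraries were thus of like width, 533 to 597 bp, while GR replicate 2 spanned 1682 bp, wider than 97.3% of the promoter peaks in its list. The E2A peaks lay wholly inside that of GR replicate 2 and shared 433 and 517 bp with that of GR replicate 1.

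The Insig1 promoter (GRCm38.p6, chr5:28071162-28071461, plus strand) lay inside the peaks of all 4 libraries over its full length and is shown for that reason, with E-box and NF-Y letters in capitals.
Insig1 promoter: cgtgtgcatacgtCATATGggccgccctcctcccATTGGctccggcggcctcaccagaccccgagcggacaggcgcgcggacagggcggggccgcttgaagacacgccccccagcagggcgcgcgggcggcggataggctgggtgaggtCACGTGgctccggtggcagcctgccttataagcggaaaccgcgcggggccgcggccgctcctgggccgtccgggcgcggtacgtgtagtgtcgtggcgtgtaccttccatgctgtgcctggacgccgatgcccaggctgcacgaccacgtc

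It held 2 E-boxes and 1 NF-Y match. The E-box at 28071311-28071316 has the core CACGTG, which 7.15% of promoters held, and lay 49 bp before the start site. E-boxes of any core were found in 72.3% of promoters and NF-Y letters in 37.4%, so both are common among promoters. GC content was 71.7%, higher than in 92.6% of promoters.

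Outside the promoter, the Insig1 peaks were mostly those of GR replicate 2. The region 39.2 kb upstream was called in GR replicate 2 at 28031981-28032348 and in E2A replicate 1 at 28031978-28032288, with 308 bp in common. Both peaks held 2 E-boxes and 1 half-site AGAACA. The region about 16 kb upstream was called in both GR replicates, at 28055377-28055879 and 28054954-28055865, and in neither E2A replicate, and 2 half-sites lay in both peaks. GR replicate 2 alone had peaks 33.1 kb upstream and 2.81, 5.2 and 7.54 kb downstream, in exon 3, intron 4 and the 3' UTR. The last was 1630 bp wide, wider than 97.8% of the other peaks outside promoters in its list.

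Insig2 encodes the second INSIG protein and had 5 E2A and 3 GR peaks. All 5 E2A peaks were of E2A replicate 1, and E2A replicate 2 had none within 50 kb. The gene runs on the minus strand of chromosome 1 from a GENCODE start at 121332589, and no promoter peak was called there. The promoter peaks of GR replicate 2 at 121327720-121328192 and of E2A replicate 1 at 121327769-121328072 lay 4.63 and 4.67 kb downstream, at internal start sites. E2A lay wholly inside GR, with centres 36 bp apart.

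The RefSeq promoter at one of these internal starts (GRCm38.p6, chr1:121327975-121328274, minus strand) is shown with its E-boxes in capitals.
Insig2 internal promoter: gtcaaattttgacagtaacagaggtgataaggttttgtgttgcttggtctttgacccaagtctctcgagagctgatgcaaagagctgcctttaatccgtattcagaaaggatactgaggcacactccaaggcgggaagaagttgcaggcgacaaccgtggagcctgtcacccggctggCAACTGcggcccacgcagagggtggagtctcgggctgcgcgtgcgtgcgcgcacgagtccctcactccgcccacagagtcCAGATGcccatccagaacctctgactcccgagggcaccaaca

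Of its 2 E-boxes, the one at 121328011-121328016 lay in both peaks and the other in the GR peak alone. A further E-box with the core CAGCTG at 121327968-121327973, just beyond the sequence shown, also lay in both peaks. NF-Y letters were absent from the called region.

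The distal Insig2 region 16.6 kb upstream was called in 3 libraries. Both GR replicates had it, at chr1:121348950-121349396 and 121349055-121349529, as did E2A replicate 1 at 121348731-121349254. The GR peaks shared 342 bp with each other and 305 and 200 bp with E2A. The remaining Insig2 peaks, 3.4 kb upstream, 2.95 kb downstream and 88.6 kb downstream at 121243833-121244126, were of E2A replicate 1 alone.

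The 200 bp common to the 3 peaks (GRCm38.p6, chr1:121349055-121349254, minus strand) are shown for the GRE match they hold, with E-boxes in and around it. Both are in capitals.
Insig2 distal region: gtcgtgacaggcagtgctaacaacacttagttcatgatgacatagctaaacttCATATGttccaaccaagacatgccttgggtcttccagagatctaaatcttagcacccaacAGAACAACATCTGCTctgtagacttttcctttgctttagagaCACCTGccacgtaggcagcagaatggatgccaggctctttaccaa

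The GRE match at 121349127-121349141 had 2 mismatches, held the intact half-site AGAACA and lay in no repeat. The E-box at 121349129-121349134 lay inside it, and a second E-box of core CAGGTG at 121349094-121349099 stood close by. All of these matches lay in the peaks of both GR replicates and E2A replicate 1. Among the 12 distal regions of Insig1, Insig2 and Srebf2, 3 had a GRE match in their central 200 bp, the last of them the E2A region 2.95 kb inside Insig2, where 10 of the 15 bases are marked as repeat. E-boxes were found in 11 of 12, against 68.7% of the 5585 distal regions scanned, of 5778 in the series. The 5 promoter regions scanned held no GRE match at their centres, where 0.766% of the 4830 promoter regions scanned did, of 4977 in the series. The other regions lay on chromosomes left out of the scan.

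Across the 18 regions, 8 had GR and E2A, 7 had GR only and 3 had E2A only. In the whole series 24.7% of regions had both. By position, 5 of 6 promoter regions were shared, against 26.6% of promoter regions, and 3 of 12 distal regions, against 23.1% of distal regions. A shared region within 50 kb was found at 5 of 6 genes, all but Idi1, where 19.5% of all genes had one. Most regions were not called in every library, with 9 called in 1 library, 4 in 2, 4 in 3 and 1 in 4. Of the 9 called once, 5 were of GR replicate 2, 3 of E2A replicate 1 and 1 of GR replicate 1.

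These counts rested on particular libraries. Without E2A replicate 1 the shared regions fell from 8 to 1, the Insig1 promoter, and without GR replicate 2 to 4. GR was called in both replicates at 5 regions, the promoters of Srebf2 and Insig1, the intron of Srebf2, the distal region of Insig2 and the region 16 kb before Insig1. E2A was called in both at 2, the promoters of Hmgcs1 and Insig1.

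Where GR and E2A peaks overlapped in a promoter, the position of E2A against GR along the gene varied among the genes. The E2A centre lay 426 bp upstream of the GR centre at Hmgcs1, 173 and 334 bp upstream at Srebf2, and 56 to 325 bp upstream at Insig1. At Sqle and Insig2 it lay 7 and 36 bp downstream. Over all 2389 such pairs at 1257 genes, E2A lay upstream in 65.8%, with a median of -71 bp and quartiles of -187 and 52 bp, negative values being upstream. The Hmgcs1 pair was of GR replicate 2 and E2A replicate 1. Among the 1090 pairs of these libraries, 5.87% lay as far upstream. Pairs at 1 gene share peaks and are not independent, and the lists hold no summits, so a centre also moves with peak width.

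**Figure D4:**
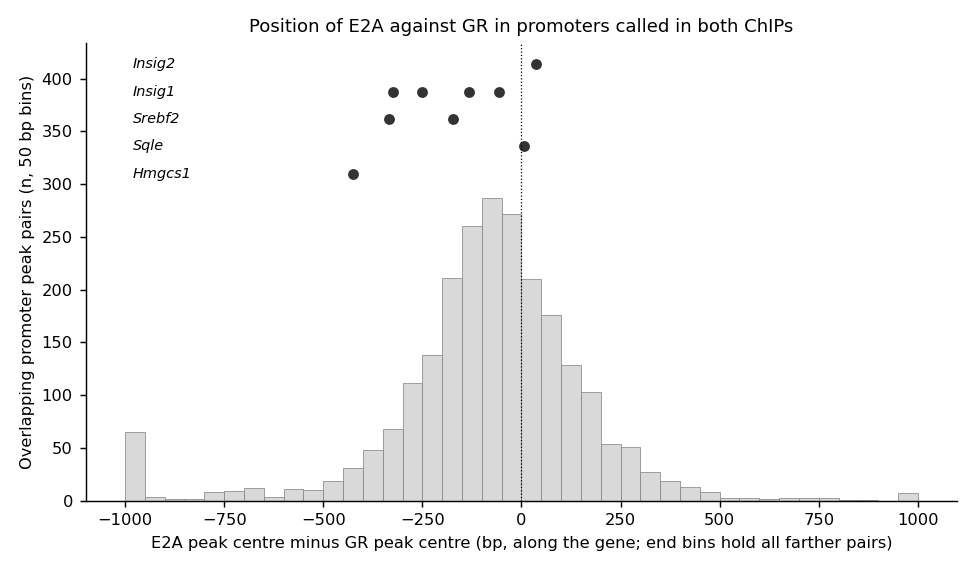
Distance in bp along the gene from the GR to the E2A peak centre for 2389 overlapping promoter pairs (grey bars, 50 bp bins, end bins holding all farther pairs), with the pairs of the named genes as points above. Points of Hmgcs1, Srebf2 and Insig1 lie below 0, that is upstream, and those of Sqle and Insig2 lie just above 0.

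Genes of cholesterol metabolism were listed by role, 41 in all with 36 of them reported. The 6 genes are among the 36 and are counted in the role lists that follow. In synthesis, GR replicate 2 had a promoter peak at 13 of 18 genes, E2A replicate 1 at 3, and GR replicate 1 and E2A replicate 2 at 1 each. In SREBP control, which includes Srebf1, Scap and the proteases of Mbtps1 and Mbtps2, GR was called at 2 and 5 of 7 promoters in replicates 1 and 2 and E2A at 4 and 1. In uptake and trafficking, where Mylip and Scarb1 belong, GR replicate 2 had 3 of 4 promoters, GR replicate 1 had 1 and neither E2A replicate had any. In efflux, bile acid and ester formation the counts were 3 and 2 of 7 for GR and 0 in both E2A replicates. Among all genes, promoter peaks were called at 6.0% and 17.4% in GR replicates 1 and 2 and at 7.01% and 2.92% in E2A replicates 1 and 2, so that lists of 4 or 7 genes with no E2A call were near the background.

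**Figure D5:**
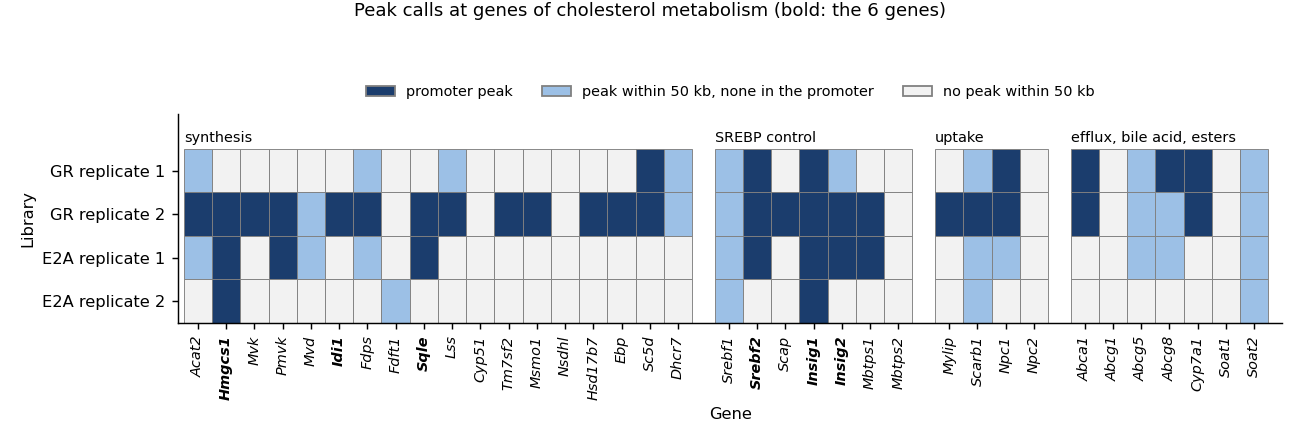
Calls in each library (rows) at 36 genes of cholesterol metabolism (columns, by role), in dark blue for a promoter peak, light blue for a peak within 50 kb outside the promoter and pale grey for none. The row of GR replicate 2 is mostly dark over synthesis (13 of 18), and the dark E2A cells belong to 5 of the 6 genes in bold and to Pmvk and Mbtps1.

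With the 6 genes left out, 17 of the remaining 30 had a promoter peak in GR replicate 2, 5 in GR replicate 1, 2 in E2A replicate 1 and 0 in E2A replicate 2. The E2A counts were near the shares of all genes, 7.01% and 2.92%, and the GR counts stood beside 17.4% in replicate 2 and 6.0% in replicate 1. A region with GR and E2A lay within 50 kb of 10 of the 30, against 19.5% of all genes. E2A promoter peaks at these other genes were those of Pmvk and Mbtps1, both in replicate 1. The GR promoter calls at synthesis genes were almost all from replicate 2, the longest list and the one richest in promoters, and this replicate difference was not tested.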

How the data were processed

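GR and E2A ChIP-Seq peak lists of 4 wild-type mouse liver samples were analysed. By the study's methods, the authors used BWA-MEM (0.7.13 in the submitters' processing notes) and the mm10 genome, marked and dropped duplicates with Picard, retained unique pairs, reduced the libraries of each antibody to an equal number of pairs and ran MACS2 sample by sample. By the paper, the number of pairs kept was larger for E2A than for GR. The notes name Picard 1.119 and MACS2 2.1.0, and the paper names other versions of both. The control, the threshold and the annotation tool are not given in the sources used here. Deposited for every peak were its position, its width, the feature it falls in and its distance from a start site, all in bp and without counts, heights or q-values. The read depth at a given peak is therefore unknown, reducing the reads can drop weak sites from a list, and a site without a peak may still be bound. Widths equal end minus start plus 1 in 100% of rows, so coordinates were read as 1-based, and a shift of 1 bp is not settled.

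Groups and replicate numbers came from sample titles. Start sites came from GENCODE vM21 protein-coding genes, and 90.4% of peak rows carried one of their symbols. Peaks sharing at least 1 bp were merged with Python 3.11.15, pandas 2.3.3 and numpy 2.4.6, and the number of peaks was compared with an exact permutation test in scipy 1.17.1. RefSeq promoters were found for 5 of the 6 genes, and all 7 of their windows matched the genome read with pysam 0.24.0. Letters were searched on both strands, with mismatches allowed for the GRE alone. The code was tested on simulated data. The 6 genes, the lists and the motifs were chosen with earlier results of these data known. Genes named besides the 6 are those assigned a peak in their windows and pathway genes with the same promoter calls, at most 5 a pattern in alphabetical order, with the exceptions named for their role, their list or their peaks after values were seen. Of the 41 listed pathway genes, 5 are not reported here. Alternatives changed the overlap, window, start sites, peak width, promoter definition and replicates.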

Additional observations from a re-analysis of the deposited data

How the results depend on the processing

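The count of shared regions, 8 with at least 1 bp in common, was 7 when 50% of the shorter peak had to be shared or centres had to lie within 250 bp, which left out Hmgcs1 in both cases, and stayed at 8 with a window of 100 kb, any annotated start site, or peaks over 2000 bp left out. It was 5 within 10 kb, 3 with only peaks at least as wide as the median of their list, and 1 when both replicates of each antibody were required. The count of genes with a shared region, 5, was 3 with wide peaks and 1 with both replicates. Genes with an E2A promoter peak in both replicates numbered 2, and 1 with wide peaks. Leaving out 1 library gave 1 to 8 shared regions and 1 to 5 genes, the lowest without E2A replicate 1. The difference of 4 peaks per library between GR and E2A was 1 within 10 kb and ranged from 0 to 8 with 1 library left out, an alternative added after seeing the data. With the replicate number as a block, the difference within pairs was -4 for replicate 1 and 12 for replicate 2, a mean of 4. An exact sign-flip test over these 2 pairs, added after seeing the data, gave a two-sided p of 1.0, with 0.5 the smallest possible, and the labels do not say that equal numbers mark the same liver. By the reversed numbers in the names of the GR lists, the pairs would be 14 GR against 10 E2A peaks and 6 against 2. GR would then be higher in both, so the opposite signs rest on following the labels. The test was not run on that pairing. Lists without heights limit what a missing peak means.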

Other observations

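Among 7 genes of cholesterol efflux, bile acid and ester formation, 3 had a region with GR and E2A within 50 kb, against 19.5% of all genes. These were Abcg5 and Abcg8, with 1 such region each, and Soat2. Windows of nearby genes can hold the same region, so the 3 genes need not be 3 separate loci. Abca1, which exports cholesterol to lipoproteins, and Cyp7a1, the rate-limiting enzyme of bile acid synthesis, each had a GR promoter peak in both replicates, with 7 peaks of GR within 50 kb in all and no E2A peak there in either replicate. Abcg8, which forms the canalicular sterol transporter with Abcg5, had a promoter peak in GR replicate 1 alone. Soat2, which esterifies cholesterol, had no promoter peak but 13 peaks within 50 kb, 3 and 5 of GR and 3 and 2 of E2A in replicates 1 and 2, in which 4 regions had both factors.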
